A study of Homo sapiens with 13 samples.

Results

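Binding of 4 transcriptional regulators around 6 genes of cell division (*ECT2*, *KIF23*, *KIF11*, *BIRC5*, *CCNB1* and *PLK1*) was examined in MDA-MB-231, an established human breast cancer cell line. The regulators were YAP, TAZ, TEAD4 and JUN. A site was taken as a member when the summit of a listed peak lay within 100 kb of a gene start on hg19. Peaks that overlapped by at least 1 bp were joined into regions, and 21 of the 28100 regions in the series were members, holding 37 peaks. The genes are a set by function, and no peak value entered the rule. The members were nevertheless chosen with earlier results of these data known. The groups, assayed by chromatin immunoprecipitation and sequencing (ChIP-seq), are told apart in the labels by antibody, and no treatment is named. YAP, TAZ, TEAD4 and JUN had 2 libraries each. The controls were 2 libraries with rabbit IgG, used for YAP and TAZ, and 3 with mouse IgG, used for TEAD4 and JUN. The deposited data hold 1 peak list per factor, so no value has a spread between replicates, read depth is unknown here, and no difference was tested over samples. By the raw file names in the labels, YAP and TAZ shared a sequencing run, and they shared their IgG libraries. TEAD4 and JUN had others, so factor, run and IgG cannot be told apart between these pairs. By the same names, 1 JUN library shared a run with TEAD4, and the other shared a further run with 1 mouse IgG library.

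In mitosis, cyclin B1 (the product of *CCNB1*) activates the kinase CDK1 at entry, and polo-like kinase 1 (*PLK1*) acts from entry to exit. The kinesin-5 motor encoded by *KIF11* separates the spindle poles. Survivin (*BIRC5*) is a subunit of the chromosomal passenger complex, the kinesin-6 motor encoded by *KIF23* is a subunit of centralspindlin at the spindle midzone, and ECT2 is the RhoA activator that starts the contractile ring. Genes of this kind are transcribed late in the cell cycle, through promoters with CCAAT boxes bound by NF-Y and with the cell cycle genes homology region (CHR). YAP and TAZ are coactivators restrained by the Hippo pathway that reach DNA through partners such as TEAD4, a TEA-domain factor, while JUN is a subunit of AP-1.

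The 6 genes differed in what lay around them. *ECT2*, *BIRC5* and *CCNB1* each had 1 region with all 4 factors. *KIF23* had no such region but had 2 with both YAP and TAZ. *KIF11* and *PLK1* had JUN peaks alone. YAP or TAZ was thus found within 100 kb of 4 of the 6 genes and JUN within 100 kb of all 6. The JUN list was also the longest, with 24554 peaks against 7709 for YAP, 9798 for TAZ and 8406 for TEAD4. With the lists cut by −log10 p to equal length, JUN remained at the same 4 genes as YAP or TAZ. *KIF11* and *PLK1* then had no region. Fixed 200-kb tiles over the listed span of the genome gave the background, with 37.1% of 14635 tiles holding a region with YAP or TAZ, 20.2% a region with all 4 factors and 60.1% any region. These tiles include gene-poor stretches, whereas each of the 6 windows is centred on a gene.

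**Figure D1:**
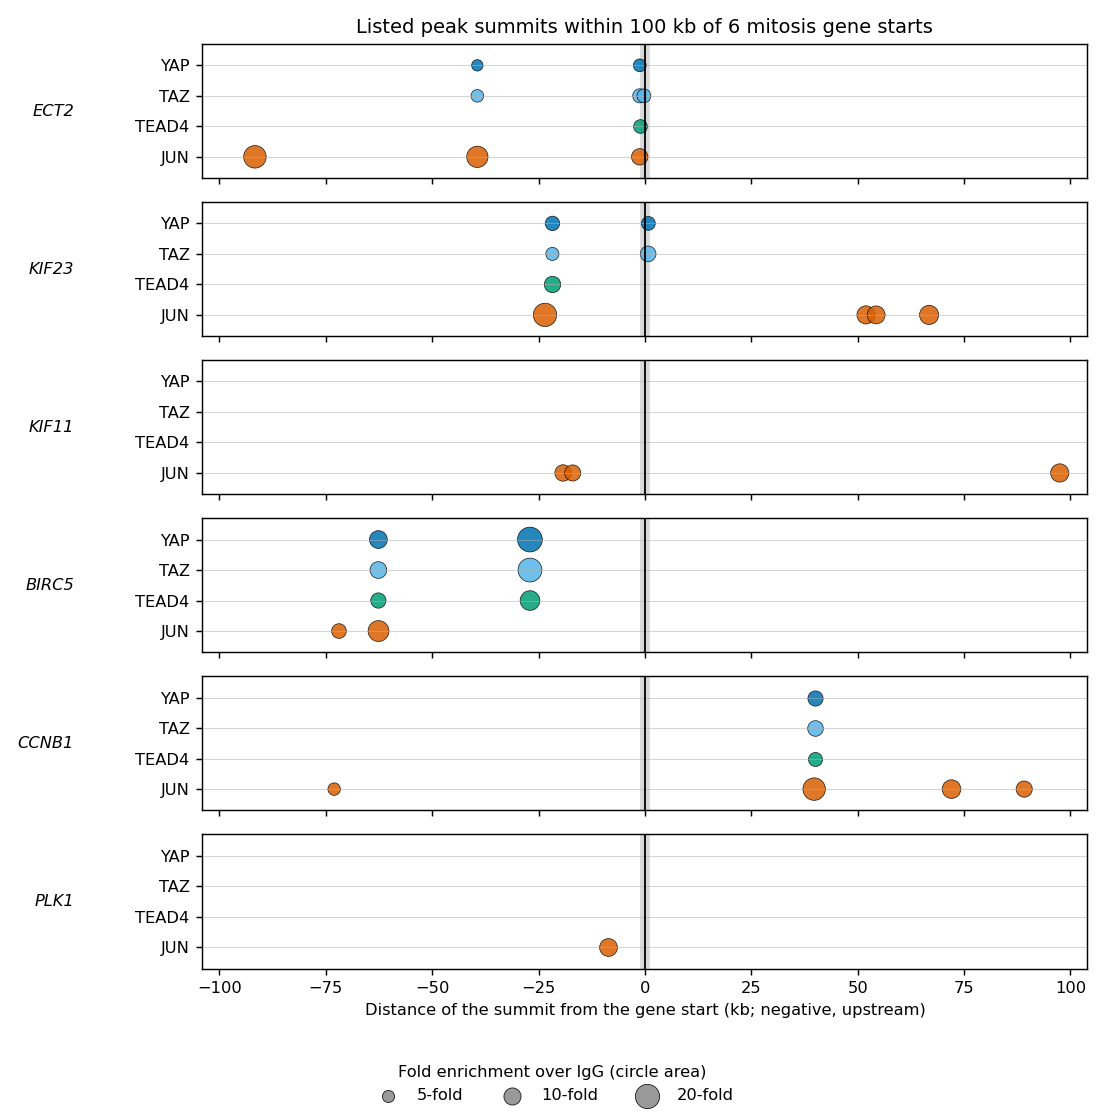
Listed peak summits within 100 kb of each gene start, by factor. The x axis gives the distance from the start in kb, the grey band marks 1 kb either side, and the circle area is proportional to the fold enrichment over IgG. The largest YAP and TAZ circles belong to the region 27.0 kb upstream of *BIRC5*, and the *KIF11* and *PLK1* windows hold JUN circles only.

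By gene, the number of regions was 6 for *KIF23*, 4 for *ECT2*, 4 for *CCNB1*, 3 for *BIRC5*, 3 for *KIF11* and 1 for *PLK1*. The mean was 3.5 per window, against 1.92 per tile over the genome. Tiles with at least as many regions as *KIF23* made up 9.70%, and those with at least as many as *ECT2* or *CCNB1* made up 19.6%. At least 3 regions, as beside *BIRC5* or *KIF11*, occurred in 28.4% of tiles. At least 3 regions with YAP or TAZ, the number beside *ECT2*, occurred in 8.03% of tiles, though 2 of those at *ECT2* lay only 141 bp apart. At least 2, as beside *KIF23* or *BIRC5*, occurred in 16.8%, and at least 1, as beside *CCNB1*, in 37.1%. The single region beside *PLK1* was reached or passed by 60.1% of tiles.

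**Figure D2:**
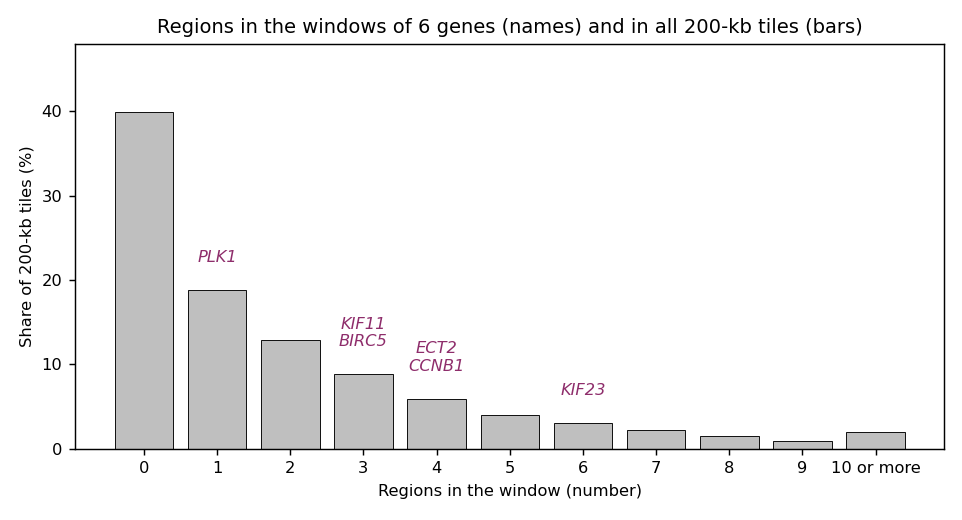
Share of all 200-kb tiles (y axis, %) by the number of regions they hold (x axis), with the 6 genes written above the bar of their own number. *KIF23* stands at 6 regions and *PLK1* at 1.

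Summits lay within 1 kb of the start at 2 of the 6 genes, *ECT2* and *KIF23*, and neither site held TEAD4 or JUN. Promoter sites were not counted over other genes, so these observations have no promoter background. Over the series, 65.7% of regions with YAP or TAZ held TEAD4 and 73.6% held JUN. At *ECT2* the site was a single TAZ peak with its summit 228 bp upstream (chromosome 3, 172467800 to 172468953). Its fold enrichment over IgG, the authors' own value for the peak, was 6.51. Peaks are also given below by their rank within their own list by fold enrichment, as a percentage of the list in which low values are strong. By that measure the *ECT2* promoter peak stood at 57.6% of the TAZ list. It was 1154 bp wide, against a median width of 587 bp in the list. Among the 486 regions in the series with TAZ alone its enrichment ranked 103, and the median of those regions was 5.68.

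At *KIF23* the promoter region held YAP and TAZ (chromosome 15, 69707025 to 69707612). The TAZ summit lay 752 bp and the YAP summit 813 bp downstream of the start, which places the region on the transcribed side of the start. TAZ was enriched 8.41-fold, at 32.0% of its list. YAP was enriched 6.48-fold, at 66.8% of its list by fold and 88.9% by −log10 p. Among the 307 regions of the series with YAP and TAZ alone, this one ranked 28 by TAZ enrichment and 156 by YAP enrichment. The *KIF23* promoter was thus among the stronger of its kind for TAZ and at the middle for YAP.

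The 2 summits at *KIF23* were the nearest to the limit of 1 kb from the inside. The nearest outside it were those of the 4-factor region at *ECT2*, at 1191 bp for TEAD4, 1205 bp for YAP, 1222 bp for TAZ and 1227 bp for JUN upstream. That region and the TAZ peak at the *ECT2* promoter were separated by 141 bp between their edges. With the limit at 500 bp, *ECT2* remained as the gene with a promoter site.

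The promoter sequences below, from RefSeq on GRCh38.p14, show the letters of the cell cycle elements in the genes of this set. They run from 250 bases before the RefSeq start to 50 after it or are a stretch of that interval, and 5 of the 6 genes, all but *BIRC5*, matched the table. Capitals mark exact matches, on either strand, to TTTGAA (the CHR letters) or CCAAT (the NF-Y box). The same search covered GGAATG (TEAD) and TGANTCA (AP-1). The promoters of *ECT2* and *KIF23* are whole because listed sites lie there or beside them. Of the other 3 genes only the stretch with the elements is given. Positions on this build were not converted to hg19, and the RefSeq start may not be the start used for the peaks.
ECT2, chr3:172750476-172750775, plus strand: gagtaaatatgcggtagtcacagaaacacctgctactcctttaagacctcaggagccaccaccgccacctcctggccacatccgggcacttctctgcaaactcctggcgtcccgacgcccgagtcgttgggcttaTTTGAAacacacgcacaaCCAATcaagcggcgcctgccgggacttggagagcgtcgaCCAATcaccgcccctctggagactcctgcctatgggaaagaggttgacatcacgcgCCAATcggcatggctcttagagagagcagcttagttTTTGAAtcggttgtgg
KIF23, chr15:69414099-69414398, plus strand: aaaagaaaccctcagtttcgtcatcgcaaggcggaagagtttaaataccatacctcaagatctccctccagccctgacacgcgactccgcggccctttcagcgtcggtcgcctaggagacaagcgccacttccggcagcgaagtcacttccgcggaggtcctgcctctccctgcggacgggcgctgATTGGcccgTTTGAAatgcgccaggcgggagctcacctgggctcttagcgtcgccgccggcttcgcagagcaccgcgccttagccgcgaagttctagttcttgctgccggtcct
KIF11, chr10:92593065-92593119, plus strand: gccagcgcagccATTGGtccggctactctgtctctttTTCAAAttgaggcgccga
CCNB1, chr5:69167051-69167111, plus strand: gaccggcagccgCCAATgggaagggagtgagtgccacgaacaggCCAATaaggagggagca
PLK1, chr16:23678804-23678877, plus strand: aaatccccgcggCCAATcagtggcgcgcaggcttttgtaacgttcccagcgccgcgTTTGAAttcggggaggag

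All 5 matched genes held CCAAT, against 39.7% of the 27305 genes in the table. TTTGAA was found in 4 of the 5, *CCNB1* being the exception, against 18.2% of all genes. Only these exact letters were searched, so a CHR spelled otherwise, in *CCNB1* or elsewhere, would not have been found. TGANTCA was in none of the 5, against 9.37% of all genes. GGAATG was in 1, against 16.7%, and that match lies in a further *ECT2* promoter entry that starts downstream of the one shown. Of 24 other genes of mitosis, among them *AURKA*, *BUB1*, *CCNA2* and *CDK1*, 20 matched the table. CCAAT was found in 16 of them, TTTGAA in 14, GGAATG in 3 and TGANTCA in none. Such matches describe the letters of these windows and nothing about which factor is bound. Binding around those other genes was not analysed here.

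The other 19 regions were distal, in a window that is almost wholly distal by construction, and JUN was present at 17 of them. JUN was present at 87.3% of all regions in the series. Distal here means only that no summit lay within 1 kb of the member start. Whether a distal region lies at the start of another gene was not examined. YAP or TAZ was present at 6 distal regions, 5 of which also held TEAD4. In the series, TEAD4 was present at 65.7% of all regions with YAP or TAZ. No share was made for distal regions alone. Of all regions, 2 distal ones lay within 10 kb of a start, 7 between 10 and 50 kb, and 10 between 50 and 100 kb. JUN alone occurred at 13 of the 21 regions, against 58.0% of all regions in the series, and 9 of those 13 were more than 50 kb from the start. The stretch from 50 to 100 kb is as long as the stretch within 50 kb. Upstream regions numbered 13 and downstream regions 8. No counts by distance or side were made around other genes, so these have no background.

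The site with the best ranks near any of the genes lay 27.0 kb upstream of *BIRC5* (chromosome 17, 76182892 to 76183671). It held YAP, TAZ and TEAD4, with summits within 12 bp, and no JUN peak. YAP was enriched 20.9-fold and ranked 109 of 7709, at 1.41% of its list. TAZ was enriched 19.4-fold and ranked 186 of 9798, at 1.90% of its list. TEAD4 was enriched 13.2-fold, at 9.26% of its list. Among the 1209 regions of the series with these 3 factors and without JUN, it ranked 21 by YAP, 33 by TAZ and 149 by TEAD4. The class medians were 7.92 for YAP, 7.87 for TAZ and 8.05 for TEAD4. The site therefore stood high in its class for all 3 factors. In the gene order of GRCh38.p14, the protein-coding genes before *BIRC5* are *C17orf99*, *SYNGR2*, *TK1* and *AFMID*. *TK1* encodes the thymidine kinase of S phase. Their positions on hg19 were not used, so whether the site lies at the start of one of them is not known here. The site is therefore not assigned to *BIRC5* or to any of these genes.

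A second *BIRC5* region, 62.6 kb upstream (chromosome 17, 76147391 to 76148240), held all 4 factors. YAP was enriched 10.7-fold, TAZ 9.54-fold, TEAD4 7.94-fold and JUN 14.8-fold, at 17.7%, 23.2%, 40.6% and 27.3% of their lists. Its summits spanned 38 bp. Of the 3 member regions with all 4 factors it was the most enriched for YAP, TAZ and TEAD4. The last *BIRC5* region was a JUN peak 71.9 kb upstream, enriched 7.31-fold and at 95.7% of its list. No listed peak lay between the *BIRC5* start and 100 kb downstream. The next, a JUN peak, lay 101.5 kb downstream, just outside the window.

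*ECT2* had its sites on the upstream side only. The 4-factor region 1.21 kb upstream (chromosome 3, 172466955 to 172467658) was below the median enrichment of each list. YAP was enriched 5.57-fold at 85.1% of its list, TAZ 6.76-fold at 53.4%, TEAD4 6.39-fold at 63.3% and JUN 9.18-fold at 78.2%. By −log10 p the TAZ peak stood at 38.1% of its list. Among the 4284 regions with all 4 factors in the series it ranked 3855 by YAP and 3820 by JUN. The nearest region beyond it, 39.4 kb upstream (chromosome 3, 172428407 to 172429504), held YAP, TAZ and JUN with summits within 4 bp. There JUN was enriched 15.5-fold, at 23.8% of its list, whereas YAP was enriched 4.42-fold, at 98.7% of its list, and TAZ 5.42-fold, at 81.2%. *ECT2* thus had a region in which JUN ranked high and YAP near the end of its list. A JUN peak 91.7 kb upstream (chromosome 3, 172376496 to 172377368) was enriched 17.3-fold, at 16.0% of its list. *NCEH1* is the protein-coding gene before *ECT2* in the gene order.

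At *CCNB1* the sites nearest to the start lay about 40.0 kb downstream (chromosome 5, 68502296 to 68503036), where all 4 factors were found. YAP was enriched 7.84-fold, TAZ 8.30-fold, TEAD4 6.71-fold and JUN 17.2-fold, at 42.7%, 33.1%, 57.6% and 16.3% of their lists. Unlike the other 2 member regions of this kind, the JUN summit stood apart from the rest. It lay 218 bp from the TAZ summit, 222 bp from YAP and 241 bp from TEAD4, whereas YAP and TAZ lay 4 bp apart. In the 4129 regions of the series with 1 peak of each list, the median distance from JUN to the nearest other summit was 12 bp, and 4.38% of those regions had JUN at least as far off as at *CCNB1*. The corresponding distance was 23 bp at *BIRC5* and 5 bp at *ECT2*. With peaks narrowed to 200 bp around the summit, the *CCNB1* region fell apart into JUN alone and a region with YAP, TAZ and TEAD4. JUN stood alone at 3 regions of this gene, 73.0 kb upstream and 72.1 and 89.1 kb downstream, and the first was enriched 5.31-fold, at 99.9% of its list. The protein-coding genes after *CCNB1* in the gene order are *CENPH*, which encodes a kinetochore subunit, *KGD4* and *CDK7*, the kinase that activates CDKs.

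**Figure D3:**
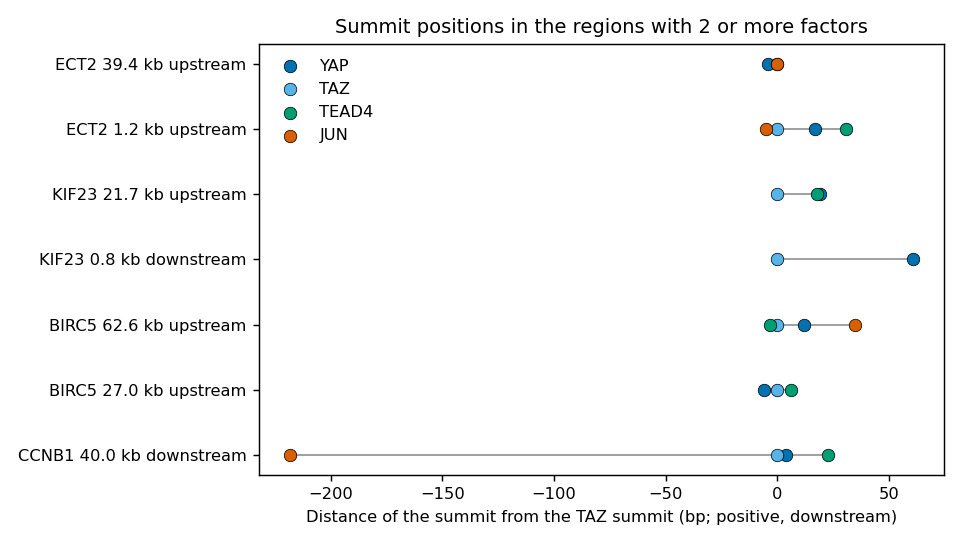
Summit positions in the 7 member regions with at least 2 factors, in bp from the TAZ summit (x axis). In the region 39.4 kb upstream of *ECT2* the JUN point covers the TAZ point. At *CCNB1* the JUN summit stands 218 bp from the TAZ summit, while the others of that region lie within 23 bp of it.

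*KIF23* had, beside its promoter site, a region 21.7 kb upstream with YAP, TAZ and TEAD4 and no JUN peak (chromosome 15, 69684669 to 69685117). TEAD4 was enriched 9.15-fold, at 28.3% of its list, YAP 7.12-fold, at 53.8%, and TAZ 5.85-fold, at 72.1%. Its 3 summits fell within 19 bp. A JUN peak without the other factors stood 1.75 kb further upstream (chromosome 15, 69682819 to 69683581), enriched 18.5-fold and at 11.7% of its list. That peak was the most enriched JUN peak by fold near any of the 6 genes. By −log10 p it stood at 28.2% of its list. The best JUN peak by that order lay 39.4 kb upstream of *ECT2*, at 10.5%. The other JUN peaks of *KIF23*, 52.0, 54.3 and 66.8 kb downstream, were enriched 11.2-, 11.0- and 12.5-fold. JUN thus lay at 4 regions of *KIF23*, none of which held YAP or TAZ. In the series, 7550 of the 24530 regions with JUN held YAP or TAZ, so most had neither. In the gene order *PAQR5* comes before *KIF23* and *RPLP1*, a ribosomal protein gene, after it.

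*KIF11* and *PLK1* had no YAP, TAZ or TEAD4 peak within 100 kb. At *KIF11* the nearest peaks of these lists were 229 kb (TEAD4), 265 kb (TAZ) and 299.5 kb (YAP) downstream. At *PLK1* they were 121 kb (TAZ) and 187 kb (TEAD4 and YAP) upstream. The 3 JUN peaks of *KIF11* lay 19.2 and 17.0 kb upstream and 97.5 kb downstream (chromosome 10, 94448719 to 94450719), the last being the outermost member. They were enriched 9.20-, 8.84- and 11.4-fold, at 77.8%, 81.8% and 53.3% of the list. The single JUN peak of *PLK1*, 8.56 kb upstream (chromosome 16, 23681130 to 23681877), was enriched 10.8-fold, at 59.1% of the list. None of these 4 JUN peaks reached the stronger 50% of the list. *IDE* and *HHEX* flank *KIF11* in the gene order, and *DCTN5* and *ERN2* flank *PLK1*.

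The peak names carry numbers that ascend along each chromosome, and numbers missing between listed neighbours may be candidate peaks that were not listed. This reading assumes that the numbers count all candidates. Between the listed peaks either side of a gene start, 1 to 11 YAP, 2 to 14 TAZ, 3 to 9 TEAD4 and 1 to 21 JUN numbers were unlisted over the 6 genes. The stretches between those peaks can be long. For YAP the listed peaks stood 940 kb upstream and 299.5 kb downstream of *KIF11*, with 10 numbers unlisted between them, and 187 kb upstream and 1022 kb downstream of *PLK1*, with 8 unlisted. At *CCNB1* they stood 733 kb upstream and 40.0 kb downstream, with 2 unlisted. The numbers do not place a candidate at any promoter.

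Set side by side with all regions, the composition of the member regions was close to the background. All 4 factors were found in 3 of 21 regions (14.3%, exact binomial 95% interval 3.05 to 36.3), against 15.2% of all 28100. JUN stood alone in 13 of 21 (61.9%, 38.4 to 81.9), against 58.0% of all. YAP or TAZ was present in 8 of 21 (38.1%, 18.1 to 61.6), against 36.5% of all. The intervals are Clopper-Pearson intervals, cover counting error only and treat regions as independent, although regions of one gene share a locus. Of the 8 regions with YAP or TAZ, 7 held both, against 68.7% of the 10265 such regions in the series. TEAD4 was present at 5 of the 8, against 65.7%, and JUN at 4 of the 8, against 73.6%. The peak names of the TAZ list are tagged with both YAP and TAZ, so how far these lists are independent of each other is not known, and a region with both may not be separate evidence of each. No test was made of these differences.

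**Figure D4:**
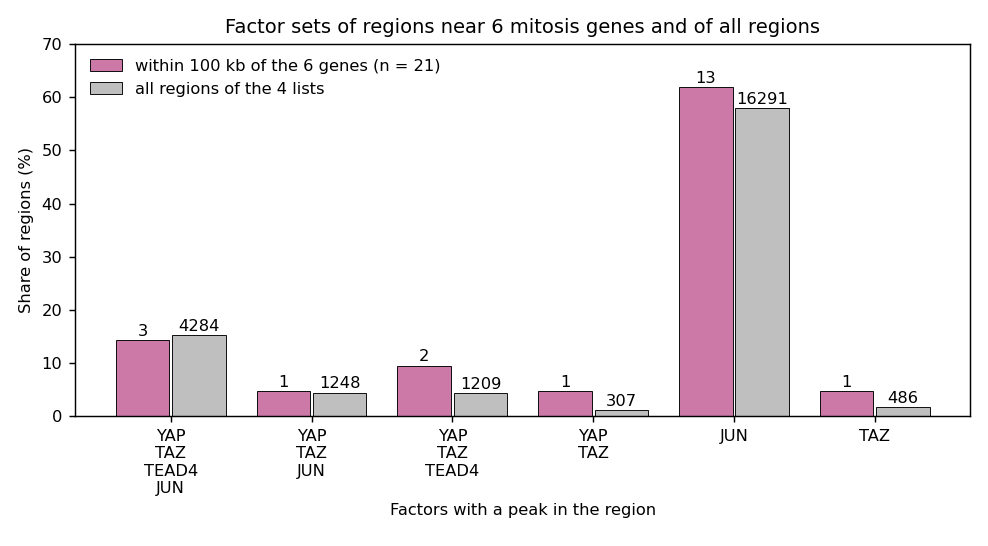
Share of regions (y axis, %) by the factors they hold, for the 21 regions within 100 kb of the 6 genes (left bar of each pair) and for all 28100 regions (right bar), with the number of regions above each bar. Regions with JUN alone are the largest class in both.

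Peak strength near the 6 genes varied within each list. The YAP peaks stood between 1.41% and 98.7% of their list, the TAZ peaks between 1.90% and 81.2%, the TEAD4 peaks between 9.26% and 63.3% and the JUN peaks between 11.7% and 99.9%. The 7 YAP peaks were enriched between 4.42- and 20.9-fold with a median of 7.12, against 7.35 in the list. For the 8 TAZ peaks the range was 5.42 to 19.4 and the median 7.53, against 6.96. The 5 TEAD4 peaks ran from 6.39 to 13.2 with a median of 7.94, against 7.20. The 17 JUN peaks ran from 5.31 to 18.5 with a median of 11.2, against 11.7. Over the lists, 17 of the 37 member peaks fell in the stronger 50% by fold. Of the YAP, TAZ and TEAD4 peaks, 1 each fell in the strongest 10% by fold, all at the region 27.0 kb upstream of *BIRC5*, and no JUN peak did. By −log10 p the TEAD4 peak of that region stood at 17.7% of its list. The 4 JUN peaks that lay with YAP or TAZ had a median enrichment of 15.1, against 11.0 for the 13 JUN peaks alone. In the whole JUN list these medians were 13.7 and 11.0.

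**Figure D5:**
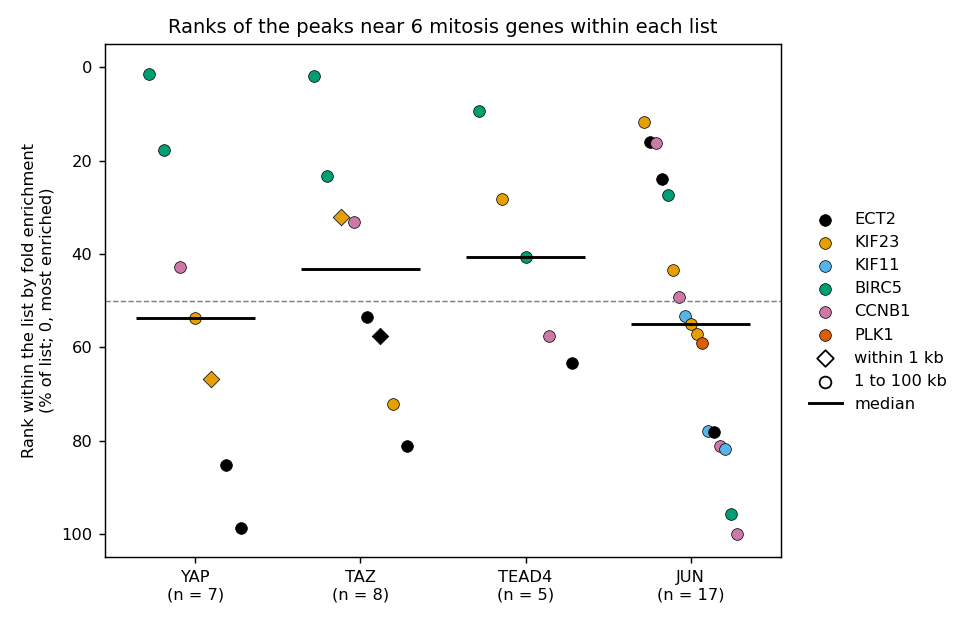
Rank of each member peak within its list by fold enrichment (y axis, % of the list, strongest at the top), by factor (x axis) and gene (colour). Diamonds are peaks within 1 kb of a start, circles are distal peaks, bars are medians and the dashed line is 50%. Peaks in the *BIRC5* window lead the YAP, TAZ and TEAD4 columns.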

How the data were processed

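MDA-MB-231 ChIP-seq libraries were grouped by titled factor. The submitters' processing notes name hg19, MACS2 2.0.10, Bowtie 0.12.7, SAMtools and CASAVA. Peaks came from the authors' irreproducible discovery rate (IDR) procedure, per the labels, against pooled IgG (titles 1 and 2 for YAP and TAZ, 3 and 4 for TEAD4, 3 and 5 for JUN), with 0.01 in the list names. Further filters were not stated. Each deposited peak has a fold enrichment over IgG (a ratio) and a −log10 p-value, used only to rank or describe peaks within a list. Depth is unknown, so no precision from depth is given.

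With Python 3.11.15, pandas 2.3.3, numpy 2.4.6 and scipy 1.17.1, peaks overlapping by at least 1 bp were merged into regions, and a region belonged to a gene when a summit lay within 100 kb of its hg19 start. Promoters were 1 kb either side. Merging and windowing were tested on simulated data. Tiles of 200 kb spanned the first to the last listed region of each chromosome. Every member region is accounted for. Sites with full values are promoter sites, the nearest 4-factor region and the best-ranked region of each gene; further sites were added to complete each gene. Members, lists and motifs were chosen with earlier results of these data known. Alternatives were windows of 50 and 200 kb, promoters of 500 bp, 2 kb and 5 kb, any base of a peak, lists cut by −log10 p to their stronger 50% or to equal length, peaks narrowed to 200 bp, a reciprocal overlap of 50%, order by −log10 p, and tiles moved by 100 kb. TAZ peak names are tagged with both YAP and TAZ, and no label explains this. No hg19 annotation or genome sequence was used.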

Additional observations from a re-analysis of the deposited data

How the results depend on the processing

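Of 36 alternative values for 10 results, 16 stayed within 1.5 times of a reported count or within the binomial interval of a reported share. The other 20 include every alternative for the median ranks, to which neither limit was applied. The 21 regions became 11 with a window of 50 kb, 45 with 200 kb, 10 with the stronger 50% of each list and 10 with lists of equal length. Both of these shorter lists were made by −log10 p, an order that differs from the fold enrichment used for ranks in the text. With the stronger 50% of each list, 1 region in 1 gene (*BIRC5*, 62.6 kb upstream) held all 4 factors, against 3 in 3 genes as reported, and 1 gene had a promoter site (*KIF23*, TAZ). A promoter of 500 bp also left 1 gene, *ECT2*. These alternatives change the number of peaks or the span examined, and the cause of the shifts was not tested. The median rank moved from 53.8% for YAP to 59.2% by −log10 p, 60.3% with 50 kb and 43.1% with 200 kb. For TAZ it was 43.3% as reported, 45.4% by −log10 p and 53.4% with either window. For TEAD4 the reported 40.6% became 44.1%, 43.0% and 28.3%, and for JUN the reported 55.0% became 66.3%, 59.1% and 53.3%, in the same order. The cause of the shifts in rank was not tested. Replicates could not be left out in turn. No paired analysis was possible because each factor's replicates share 1 list. What depth limits is unknown here.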

Other observations

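Between 100 and 200 kb from the starts there were 24 further regions, 10 of them beside *BIRC5* and none beside *KIF11* or *CCNB1*. All 10 of *BIRC5* lay downstream, where the window of 100 kb held no peak. One of them, 138.9 kb downstream (chromosome 17, 76348581 to 76349954), held all 4 factors, with YAP enriched 14.6-fold, TAZ 16.6-fold, TEAD4 12.5-fold and JUN 9.84-fold. YAP stood at 6.43%, TAZ at 3.56% and TEAD4 at 11.1% of their lists there, while JUN stood at 70.1%. A region with YAP, TAZ and JUN 120.6 kb downstream had the reverse order, with JUN enriched 23.0-fold at 3.43% of its list and YAP enriched 9.41-fold at 26.5%. The gene after *TMEM235* in that direction is *SOCS3*, an inhibitor of cytokine signalling.

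Beside *PLK1*, a JUN peak 173.9 kb upstream was enriched 29.8-fold, at 0.367% of its list, and held no other factor. A region 186.7 kb upstream held YAP, TAZ and TEAD4, with TEAD4 enriched 12.6-fold at 11.0% of its list. That region is the single one with both YAP and TAZ between 100 and 200 kb of *PLK1*. A TAZ peak 121 kb upstream stood alone.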
